A study of Mus musculus with 2 samples.

Results

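The S100 genes encode small calcium-binding proteins, and 10 of them are described here in mouse primary chondrocytes: S100a1, S100a4, S100a6, S100a8, S100a9, S100a10, S100a11, S100a13, S100a16 and S100b. They were chosen by the measured fall of S100a4 on these same arrays, as its relatives, so that their values are given as a description and no test was run on them. They are 10 of the 20660 genes that had a probe with a RefSeq transcript accession. The chondrocytes were isolated from C57BL/6J mice, 6 days old, and kept for 48 h in silicon stretch chambers coated with fibronectin. Total RNA was taken before loading or 24 h after a cyclic tensile strain of 10% elongation at 0.5 Hz that lasted 30 min. Each time point was measured on 1 single-colour array, and both arrays lay on 1 slide. How many animals gave the cells is not given in the sources used here. The control was taken before loading and an unloaded culture at 24 h was not analysed here, so that the loading itself and the 24 h spent in culture after it cannot be told apart.

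S100 proteins fold around calcium-binding loops of the EF-hand type, work mostly as dimers and act by binding other proteins, many of them annexins and parts of the cytoskeleton. Some are released from cells and bind the receptor for advanced glycation end products (Ager) or Toll-like receptor 4 (Tlr4). Cartilage has long been known to stain for S100 protein, and S100a1 and S100b are known targets of the transcription factors Sox5, Sox6 and Sox9 that hold back terminal differentiation of chondrocytes. Most genes of the family lie close together on mouse chromosome 3, while S100b lies on chromosome 10.

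S100a4 and S100a6 were the members lower by more than 2-fold at 24 h, by 2.72-fold and 2.12-fold, and 0 members were higher by more than 2-fold. S100a16, S100a10, S100a11 and S100a13 had log2 ratios from -0.58 to -0.03 at their brightest probes. The cartilage members S100a1 and S100b had log2 ratios of 0.29 and 0.41. Of the neutrophil members, S100a8 was well above background only before loading and S100a9 on neither array. Since each time point rests on 1 array, no replicate error or p-value can be had, and every error given is the within-array error that the scanner software assigns to a spot. It amounted to 0.20 on the log2 scale for each of the 8 detected members.

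The stretches before the starts of 4 members are shown first, since S100a4 and S100a6 were the lowest of the family, S100b the highest and S100a11 close to 0. Each is the 250 bases upstream of the gene start in RefSeq (GRCm38.p6), 5′ to 3′ on the strand of the gene, with matches to the searched motifs in capitals. S100a4 lies at chr3:90603520-90603769 on the plus strand, S100a6 at chr3:90612644-90612893 on the plus strand, S100a11 at chr3:93520246-93520495 on the plus strand and S100b at chr10:76253586-76253835 on the plus strand.
S100a4: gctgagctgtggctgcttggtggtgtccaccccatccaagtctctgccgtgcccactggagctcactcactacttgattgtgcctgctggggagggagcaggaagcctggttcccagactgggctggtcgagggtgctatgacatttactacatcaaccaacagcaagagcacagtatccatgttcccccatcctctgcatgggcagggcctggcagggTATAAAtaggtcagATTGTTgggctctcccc
S100a6: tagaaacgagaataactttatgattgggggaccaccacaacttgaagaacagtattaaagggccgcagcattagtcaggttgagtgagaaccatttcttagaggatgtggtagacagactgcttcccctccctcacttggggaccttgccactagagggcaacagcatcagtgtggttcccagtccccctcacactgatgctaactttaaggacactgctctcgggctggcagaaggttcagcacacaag
S100a11: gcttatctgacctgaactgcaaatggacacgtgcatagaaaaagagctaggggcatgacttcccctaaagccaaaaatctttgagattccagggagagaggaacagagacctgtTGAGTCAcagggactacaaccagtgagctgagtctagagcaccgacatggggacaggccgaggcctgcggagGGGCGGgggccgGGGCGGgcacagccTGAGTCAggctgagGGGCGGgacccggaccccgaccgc
S100b: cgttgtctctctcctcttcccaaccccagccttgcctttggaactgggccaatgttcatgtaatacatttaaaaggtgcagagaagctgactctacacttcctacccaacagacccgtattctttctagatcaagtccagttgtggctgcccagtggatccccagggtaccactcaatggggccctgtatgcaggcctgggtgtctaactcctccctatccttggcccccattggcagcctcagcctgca
The window of S100a4 held TATAAA of the TATA box, starting 31 bases before the start, and the letters AACAAT of a Sox site, which lie on the opposite strand and are read in the printed stretch as their reverse complement. The window of S100a11 held GGGCGG of the GC box 3 times and TGANTCA of the AP-1 site 2 times. No searched motif was found in the windows of S100a6 and S100b, which says only that these letters are not in these 250 bases.

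Both strands were searched, and 9 of the 10 members had a window, with 10 windows in all. The TATA box was found in 2 of the 10 windows, those of S100a4 and S100a8, against 12.4% of the 32851 windows of the same length. The GC box was found in 3 windows against 32.7% of all windows, the AP-1 letters in 2 against 6.75% and the Sox letters in 2 against 9.42%. The κB site of NF-κB and the CArG box were found in 0 of the 10 windows, against 3.9% and 1.47% of all. S100a1 and S100a13 start head to head, and their upstream windows share 104 bases. A match is a description of the letters and not a binding site.

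The array held 13 probes for the 10 members, each with 1 spot: 3 members had 2 probes and 7 had 1. The value given for a spot is the processed signal, an intensity in arbitrary units after background subtraction, and log2 ratios are of signals scaled to the 75th percentile of each array, 466.4 before loading and 466.2 at 24 h. A member is called detected when its brightest probe was well above background on both arrays, which held for 8 of the 10. All 8 were also abundant, with a mean signal above the 75th percentile. Signals of different probes are not compared as amounts of RNA, since probes differ in brightness for the same amount of RNA. Summed signals of marker lists, given below, are therefore weighted by their brightest probes.

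**Figure D1:**
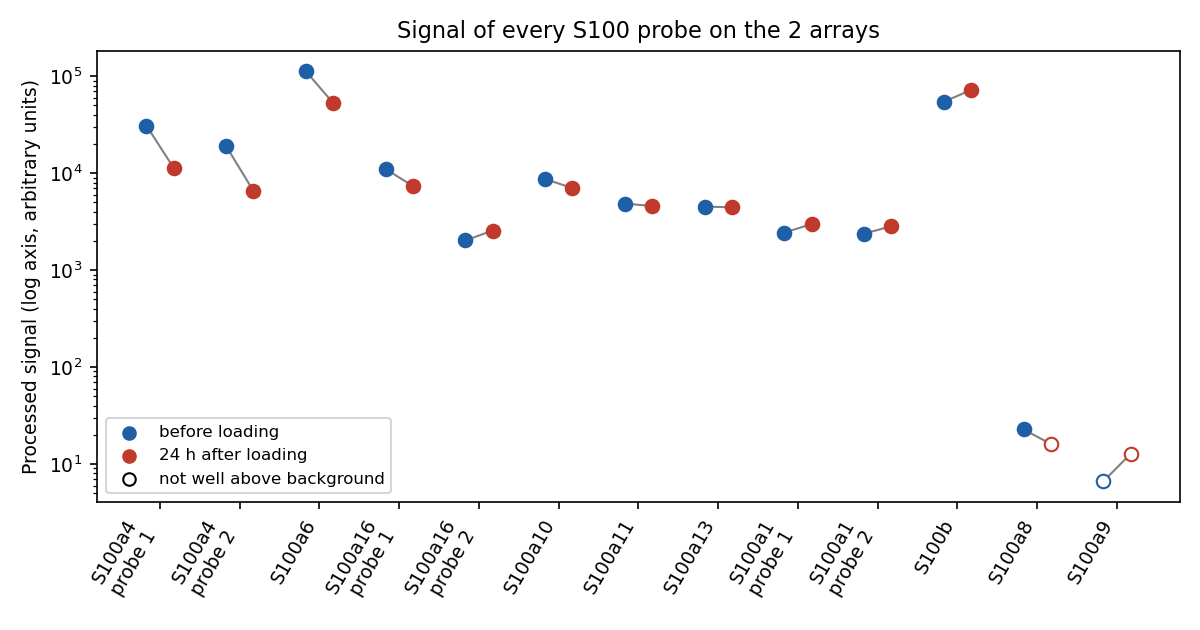
Processed signal (log axis, arbitrary units) of every S100 probe before loading (blue) and 24 h after (red), with open circles for spots not well above background. S100a4 and S100a6 drop between the arrays, S100b and S100a1 sit slightly higher at 24 h, and S100a8 and S100a9 lie at the bottom of the scale.

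S100a4 (NM_011311), also called fibroblast-specific protein or metastasin, binds the heavy chain of non-muscle myosin and is linked to cell motility. Its brightest probe read 30956 before loading and 11381 at 24 h, which gives a log2 ratio of -1.44 (within-array error 0.20). A different probe of the gene read 18969 before and 6597 at 24 h, 2.87-fold lower. Both probes were lower at 24 h, and their ratios of -1.44 and -1.52 differed by less than the within-array error of either. Among the 8564 abundant genes S100a4 held rank 33 from the lowest, with 0.374% of them lower, which restates the fall that chose the family.

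S100a6 (NM_011313), calcyclin, binds annexins, the calcyclin-binding protein Cacybp and Sugt1 and is tied to proliferating cells. Its only probe read 112440 before loading and 53020 at 24 h, a log2 ratio of -1.08. This is close to the 2-fold line, and it lay inside it with the arrays scaled by their medians (-0.99), by quantile normalization (-0.92) or by cyclic loess (-0.98). In each of these settings the ratio stayed negative. S100a6 held rank 62 from the lowest among the abundant genes.

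The 2 members lower by more than 2-fold were read beside all genes measured. Of all 14231 detected genes, 1.83% were lower by more than 2-fold and 0.668% higher. Among the abundant genes the shares were 0.899% and 0.315%. S100a4 chose the family, so these shares are given as background and nothing is read from the count of members.

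**Figure D2:**
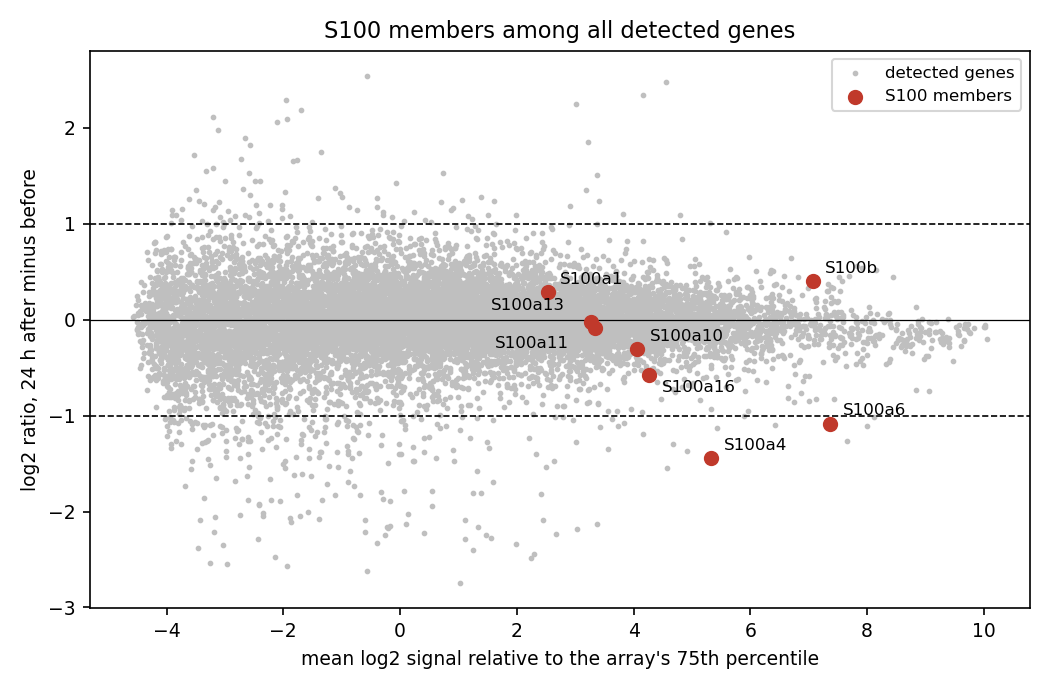
Log2 ratio (24 h after minus before loading) against mean log2 signal, with each array's 75th percentile set to 0, for the 14231 detected genes (grey) and the 8 detected S100 members (red), with dashed lines at 2-fold. S100a4 and S100a6 lie below the lower line, and the other 6 members lie between the lines.

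S100a16 (NM_026416), a broadly expressed member, gave readings that differed between its probes. The brightest probe read 11010 before loading and 7373 at 24 h, 1.49-fold lower, and the dimmer probe read 2022 before and 2556 at 24 h, 1.26-fold higher. The range between the log2 ratios, 0.92, was larger than their combined within-array error of 0.29, and the mean over both probes was -0.12. Of the 3635 genes with more than 1 detected probe, 2.72% had a range at least as large, and the median range was 0.19. No direction is given for this gene.

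S100a10 (NM_009112), known as p11, is the partner of annexin A2 and has lost the ability to bind calcium. Its probe read 8685 before loading and 7024 at 24 h, a log2 ratio of -0.31. S100a11 (NM_016740), which binds annexin A1, read 4852 and 4581, a log2 ratio of -0.08. S100a13 (NM_009113), which takes part in the release of fibroblast growth factor 1, read 4519 and 4439, a log2 ratio of -0.03. The ratios of S100a11 and S100a13 were smaller than the within-array error, and their sign turned with the scaling: S100a11 was at 0.02 with median scaling, and S100a13 was at 0.07 with median scaling, 0.04 with spike-in scaling and 0.01 with normexp background correction.

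S100a1 (NM_011309) is best known from heart and skeletal muscle, where it acts on calcium handling, and is also made in cartilage. Its brightest probe read 2439 before loading and 2981 at 24 h, a log2 ratio of 0.29, and its other probe read 2376 and 2833, a log2 ratio of 0.25. Both probes were higher at 24 h by a similar amount, less than 2-fold, and 11.8% of the abundant genes were higher still. S100b (NM_009115), used as a marker of chondrocytes and of glia, read 54477 before loading and 72129 at 24 h, a log2 ratio of 0.41. Among the abundant genes 5.89% had a higher ratio.

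S100a8 (NM_013650) and S100a9 (NM_009114) form calprotectin, the abundant calcium-binding dimer of neutrophils that signals through Tlr4 and Ager. S100a8 read 22.7 before loading, well above background, and 16.1 at 24 h, not well above background. Against the lowest signal that counted as well above background at 24 h, 17.8, the reading was at least 1.27-fold lower. That bound, 0.35 on the log2 scale, leaves out the within-array error of 0.50 and is smaller than it. S100a9 read 6.64 and 12.7, with neither spot well above background, and no fold is given.

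Put in order of their log2 ratios, from the lowest, the detected members were S100a4, S100a6, S100a16, S100a10, S100a11, S100a13, S100a1 and S100b. S100a16 is placed by its brightest probe, and its dimmer probe would stand among the highest, so that its place is not settled. The gaps were 0.36 between S100a4 and S100a6, 0.22 between S100a10 and S100a11, 0.06 between S100a11 and S100a13, 0.32 between S100a13 and S100a1 and 0.12 between S100a1 and S100b, beside a combined error of 0.29 for a pair. Each member probe has 1 spot, so this error is the value the scanner software assigns and not a spread measured between spots or cultures. The order is therefore a description and does not show which members differ. Of the 8 detected members 6 had a ratio below 0 and 2 above, with a median of -0.19, where the median of all 14231 detected genes was -0.01 and 52.4% were below 0. The 6 hold S100a4, which chose the family, and S100a16 at its brightest probe, and with the arrays scaled by their medians the members stood at 4 below 0 and 4 above. With spike-in scaling or normexp correction they stood at 5 below and 3 above.

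**Figure D3:**
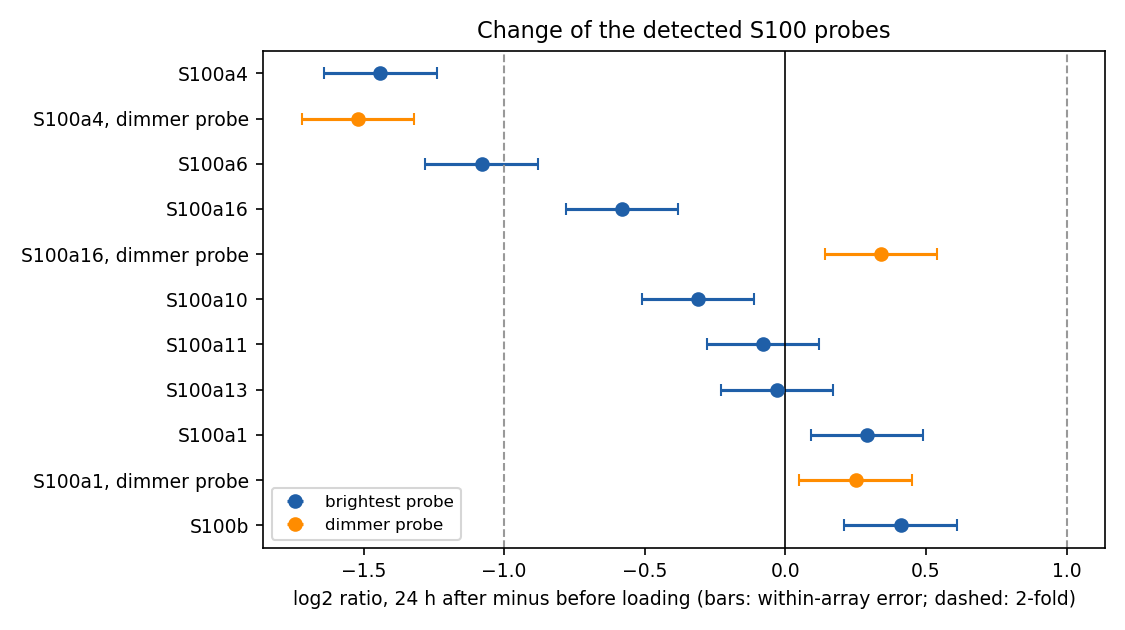
Log2 ratio (24 h after minus before loading) of each detected S100 probe, in order of the members, with bars for the within-array error of the scanner software and dashed lines at 2-fold. The brightest probes (blue) run from S100a4 at -1.44 to S100b at 0.41, and the dimmer probe of S100a16 (orange) lies on the other side of 0 from its brightest.

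Along chromosome 3 the members S100a4 and S100a6 lie near each other, with S100a5 between them and S100a2 and S100a3 on the far side of S100a4. S100a5 read 140 before loading and 133 at 24 h, a log2 ratio of -0.08 with an error of 0.22. S100a3 read 108 on both arrays, a log2 ratio of 0.01. S100a2 read 168 and 127, a log2 ratio of -0.41 with an error of 0.21. Of the 15 spots around it, 3 were higher by more than 2-fold, and 0 of 11 when counted over spots well above background on both arrays. These 3 genes between and beside the lowest members had ratios closer to 0 than S100a4 and S100a6.

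From S100a1 to S100a10 the array held 64 genes, 15 of them S100 genes, and 14 of the other 49 were detected. Of these 14, 1 was lower by more than 2-fold, Lor, the loricrin gene of the skin barrier, at -1.35 with an error of 0.34, and 0 were higher. Lor was named after its value was seen. Between S100a6 and S100a8, S100a7a, a keratinocyte member, read 8.87 before loading, not well above background, and 164 at 24 h, at least 9.47-fold higher against the lowest signal well above background before loading, 17.3. Of the 23 spots within 100 µm of its spot, 7 were higher by more than 2-fold. Counted over spots well above background on both arrays in place of at least 1, these were 1 of 17. The part of this area of the array in the S100a7a value was not tested. The probes of S100a14, S100a7l2, S100g and S100z did not rise well above background before loading or at 24 h.

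**Figure D4:**
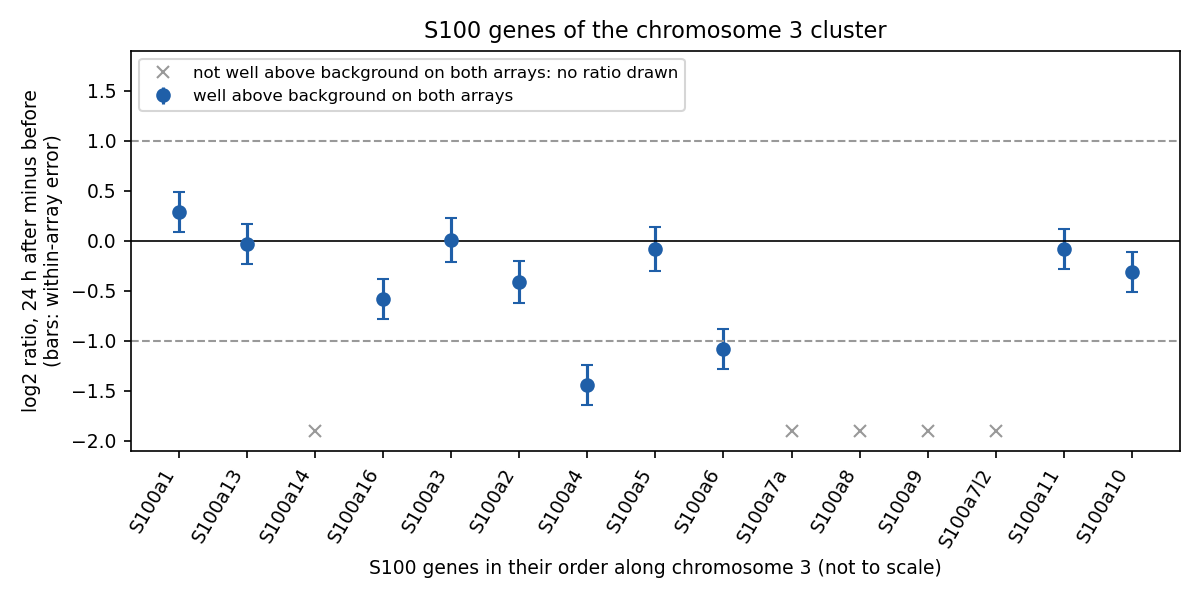
Log2 ratio (24 h after minus before loading, bars for the within-array error) of the S100 genes in their order along chromosome 3, not to scale, with dashed lines at 2-fold and crosses for genes not well above background on both arrays. S100a4 and S100a6 lie below the lower line, and S100a5 between them lies near 0.

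The same areas were examined for the members. No neighbour of either S100a4 probe changed by more than 2-fold. Beside S100a6, 2 of 11 spots were lower, beside S100b 3 of 16 were lower, and beside S100a10 1 of 18 was higher and 1 lower. Counted over spots well above background on both arrays, 0 spots changed beside each of these 3 genes. Beside S100a8, 2 of 20 were lower, and 1 of 17 by the other counting. The choice between the countings was made after these values had been seen.

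Genes with an S100 domain fused to a long repeat, made in skin and hair, were almost all at background. Of 6 with a probe only Tchh, trichohyalin, was detected on both arrays, with 534 before loading and 293 at 24 h, a log2 ratio of -0.87 with an error of 0.21. Crnn was well above background only before loading, and Flg2, Hrnr, Rptn and Tchhl1 on neither array.

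The binding partners of the members were all detected, and 0 of 9 passed 2-fold in either direction. Myh9, the myosin heavy chain that S100a4 binds, read 34935 before loading and 30003 at 24 h, a log2 ratio of -0.22. Anxa2, the annexin held by S100a10, read 129497 and 109363, a log2 ratio of -0.24. Ahnak, which binds the same complex, stood at -0.03 at the brightest of its 4 probes. The dimmer Ahnak probes stood at -0.43, 0.34 and -0.20, on both sides of 0. For the partners of S100a6, Sugt1 stood at -0.15 and Cacybp at -0.07. Anxa1 stood at -0.11, Anxa6 at 0.01, Anxa11 at 0.06 and Fgf1, the cargo of S100a13, at 0.12 with an error of 0.27. The median of the 9 genes was -0.07 and turned to 0.03 with median scaling.

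Of the 4 receptors of released S100 proteins 3 were detected, and 0 passed 2-fold. Bsg, which binds S100a9, read 9192 before loading and 7646 at 24 h, a log2 ratio of -0.26. Tlr4 read 269 and 315, a log2 ratio of 0.23 with an error of 0.15. Its probe had 2 spots, with up to 4 neighbours of a spot lower by more than 2-fold. Cd36, which binds S100a8 and S100a9, read 47.3 and 80.1, a log2 ratio of 0.76 with an error of 0.25, in an area where 3 of 19 spots were lower by more than 2-fold. The spot of Ager was well above background on neither array.

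The Sox trio that drives S100a1 and S100b in cartilage was detected whole. Sox9 had a log2 ratio of 0.22 with an error of 0.07, Sox6 of -0.04 and Sox5 of -0.24. The Sox9 probe had 9 spots, with up to 4 neighbours of a spot lower by more than 2-fold. The dimmer Sox5 probe stood at -0.56 with an error of 0.21. Of the 7 terminal differentiation genes 3 were lower by more than 2-fold: Col10a1, the collagen of hypertrophic cartilage, at -1.54, Ihh, the hedgehog of prehypertrophic cells, at -1.30, and Ibsp, a matrix protein of mineralizing tissue, at -2.06. Alpl, the phosphatase that promotes mineral deposition, stood at -0.89 and Spp1, osteopontin, at -0.48. Runx2, a master factor of hypertrophy and bone, stood at -0.05, and Mmp13, the collagenase of the hypertrophic zone, at 0.49. The median of this list was -0.89.

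In RNA of a mixed culture, fewer cells of a type and less RNA per cell cannot be told apart, so lists of cell type markers were set beside the members. All 10 chondrocyte markers were detected, Col2a1 among them, with a median of 0.15 and a summed signal of 1171694 before loading and 1214842 at 24 h. All 12 fibroblast markers were detected, 0 of them past 2-fold, with a median of 0.05 and a summed signal of 301915 and 267920. The 12 ran from -0.57 to 0.43, with 5 below 0 and 7 above. Lowest were Tagln at -0.57, Acta2 at -0.51 and Vim at -0.48, genes of the cytoskeleton, and highest was Postn, periostin, at 0.43. The collagens Col1a1, Col1a2 and Col3a1 stood at -0.04, 0.01 and 0.13, Lum at 0.13, Thy1 at 0.12 and Pdgfra at 0.11. Without the Vim probe the summed signal was 192150 and 189516. The part of a fibroblast-like or dedifferentiated fraction in the values of S100a4 and S100a6 was not tested.

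Of 8 neutrophil markers with a probe 3 were detected, with a summed signal of 81601 before loading and 76826 at 24 h, and the granule genes Ltf, Ngp and Mpo and also Retnlg were on neither array. Camp, a granule peptide, read 131 and 764 at its brightest probe, a log2 ratio of 2.54, and 0.28 at its other probe. Csf3r read 74407 and 70050 and Elane 7011 and 5987. Whether the Csf3r and Elane probes report neutrophil RNA was not tested. Most of the sum is the Csf3r probe, without which it was 7195 and 6775. Mmp8, the neutrophil collagenase, read 27.3 and 8.06, well above background only before loading like S100a8, and was at least 1.54-fold lower. This bound, 0.62 on the log2 scale, was smaller than the within-array error of 0.88. The part of neutrophils in the S100a8 value was not tested.

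All 7 macrophage markers with a probe were detected, with a median of 0.09 and a summed signal of 29867 and 28975. Most of the sum is the brightest Itgam probe, without which it was 4372 and 4216. The dimmer Itgam probes read 70.4 and 49.0 before loading. Ptprc, the pan-leukocyte antigen, read 20.9 and 46.1, with 6 of the 21 spots around it also higher by more than 2-fold. Of 6 Schwann cell markers, which are read beside S100b because glia express it, 4 were detected, with a median of 0.09 and a summed signal of 891 and 828, and Foxd3 was on neither array. Without the Mbp probe the summed signal was 462 and 510, higher at 24 h. Erbb3, the neuregulin receptor of Schwann cells, read 4.05 and 33.0, well above background only at 24 h, and was at least 1.91-fold higher. This bound, 0.93 on the log2 scale, was smaller than the within-array error of 1.39. Of 6 adipocyte markers 5 were detected and 4 were higher by more than 2-fold: Adipoq at 2.29, Cfd at 1.98, Cidea at 1.53 and Plin1 at 1.01. Fabp4 stood at 0.95 and Lep was on neither array. Their summed signal was 1352 before loading and 3257 at 24 h, and S100b, which adipocytes also make, had a log2 ratio of 0.41 beside it. The part of Schwann cells and adipocytes in the S100b value was not tested.

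The log2 ratios of the members were set under 8 further ways of processing. S100a4 ranged from -1.48 to -1.35 and S100b from 0.40 to 0.55, and S100a4 had the lowest ratio of the detected members under each of the 6 other scalings, corrections and value tables. Median and spike-in scaling shift all genes alike, and the deposited table holds the same intensities, so these could not change the order. The fall of S100a4 also chose the family, so nothing is read from its place. S100a6 ranged from -1.08 to -0.92, S100a10 from -0.31 to -0.21 and S100a1 from 0.27 to 0.39. S100a16 moved the most, from -0.58 to -0.12, when its 2 probes were averaged.

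**Figure D5:**
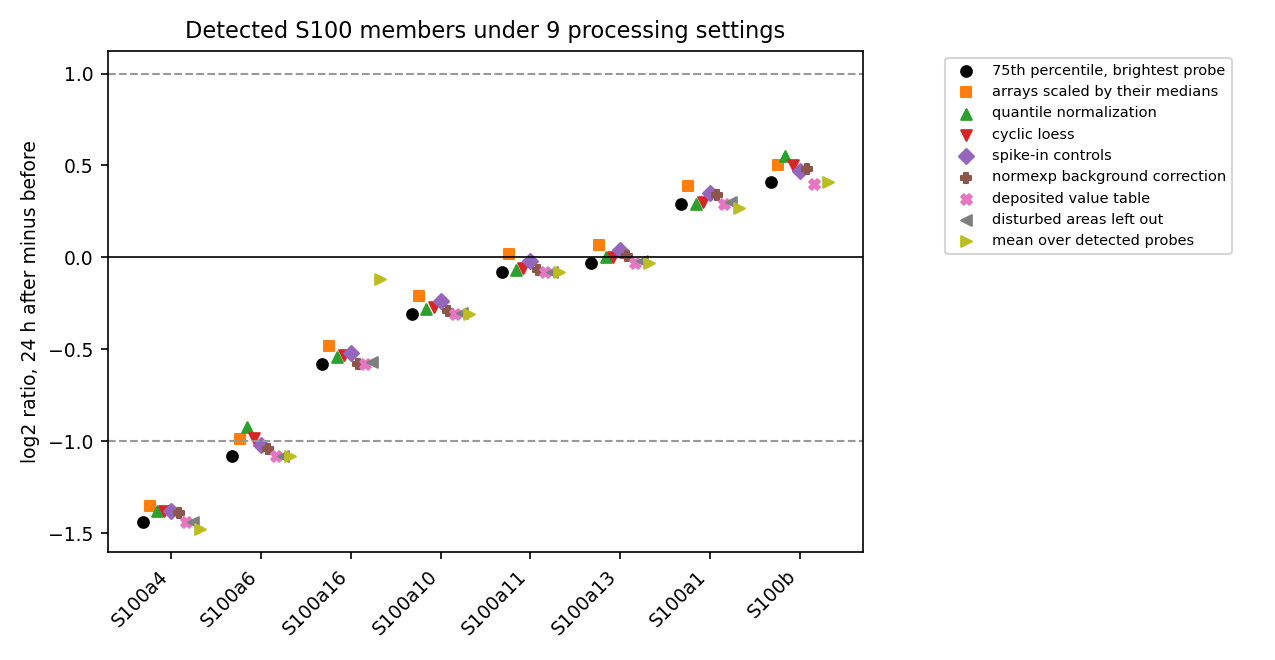
Log2 ratio (24 h after minus before loading) of the 8 detected S100 members under the setting used in the text (black) and 8 other settings, with dashed lines at 2-fold. S100a4 stays below the lower line in every setting, S100a6 lies on both sides of it, and S100a1 and S100b stay above 0.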

How the data were processed

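Chondrocyte RNA of each time point was hybridised to 1 single-colour Agilent array, and the 2 arrays were grouped by the sample titles. For every spot the authors deposited a processed intensity from Feature Extraction 10.10.1.1 (per the submitters' processing notes), background-subtracted and not normalized between arrays, together with its error and quality flags. Their value table of the same intensities served as an alternative.

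Of 59305 spots other than controls, 255 outlier spots were left out and 0 were saturated. Spots of a probe were averaged on the log2 scale, scaled to the 75th percentile of each array, and named by accession through a RefSeq table (GRCm38.p6): 27235 of 55678 probes matched. A probe is well above background where most of its spots are, a rule changed from any spot after a first run. The change could not affect the members, whose probes have 1 spot each. With 1 array per time point no test was possible, and precision is limited by this number of arrays. Probe sequences were not used here, so cross-hybridisation between family members was not checked.

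The members, gene lists and tests were chosen with earlier results of these data known, and S100a2 was added to its list after the files were seen. Genes named are all S100 members with every probe, the other S100 and S100-fused genes, binding partners, receptors, Sox trio and terminal differentiation genes, and of the marker lists those past 2-fold and up to 4 of the brightest; Tagln, Acta2, Postn, Col3a1, Thy1, Pdgfra, Erbb3, Foxd3, Lep, Mmp8 and the undetected neutrophil genes were named outside this rule, after their values were seen. Median, quantile, cyclic loess and spike-in scaling, normexp with an offset of 50, the deposited table, averaged probes, other detection filters and disturbed areas (at least 3 neighbours within 100 µm changed more than 2-fold in 1 direction) were tried. The script that calls genes past 2-fold was tested on simulated signals with known changes. limma 3.58.1 in R 4.3.3 and Python 3.11.15 with numpy 2.4.6, pandas 2.3.3, scipy 1.17.1 and matplotlib 3.10.9 were used.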

Additional observations from a re-analysis of the deposited data

How the results depend on the processing

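Of 189 values recomputed under an alternative, 6 moved. A ratio or list median counted as moved when it shifted by at least the within-array error. Many values could hardly move, such as those from the deposited table of the same intensities or the averaged probes of members with 1 probe. A reversal was asked only of S100a4 and S100a6, the members past 2-fold, and neither turned. Smaller values turned sign without counting as moved, among them S100a11, S100a13 and several list medians. The number of members lower by more than 2-fold, 2 in the text, was 1 with the arrays scaled by their medians, 1 with quantile normalization, 1 with cyclic loess and 1 where 2-fold had to be passed by more than 2 within-array errors. S100a6, at -1.08 in the text, was the member inside the line, since it lies close to it. The median of the adipocyte markers, 1.53, was 0.97 with normexp background correction, and the cause was not tested. S100a16 was at -0.12 as the mean of its probes, which is built from readings of opposite sign. The spot of S100b lay in a disturbed area when neighbours were counted over spots well above background on at least 1 array, and it has no value with these left out. Counted over spots above background on both arrays, an alternative chosen after seeing the data, it stood at 0.40. Counting a probe as detected where any spot was, chosen likewise, could move no value of a member, since each member probe has 1 spot. Scaling moved the median of all detected genes from -0.01 to at most 0.08. No paired analysis was possible because each time point has 1 array. Dim signals, near 17.3 before loading and 17.8 at 24 h, give bounds only for S100a8 and none for S100a9.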
